A study of Mus musculus with 43 samples.

Results

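Transcripts of 9 genes of the insulin and phosphoinositide 3-kinase (PI3K) signalling pathway were followed through 43 single neurons of the mouse nucleus accumbens. The genes, taken by name from the 35825 genes of the deposited tables, were the receptors *Insr* and *Igf1r*, the adaptors *Irs1* and *Irs2*, the kinase subunits *Pik3ca* and *Pik3r1*, the kinase *Akt1*, and the transcription factors *Foxo1* and *Foxo3*. All 9 were present in the tables, and 8 of the 9 passed a filter for expressed genes, which asked for more than 15 counts per 1000000 (CPM) in at least 5 cells and a mean above 4 CPM. *Irs1* exceeded 15 CPM in 4 cells and did not pass. All 9 are annotated as protein-coding.

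The neurons projected from the lateral nucleus accumbens to the ventral tegmental area (NAcLat→VTA). Retrobeads placed in the ventral tegmental area marked them, and the contents of 1 cell at a time were drawn into a patch pipette and sequenced after a recording. REG mice ate standard chow, and HFD mice were offered chow of 60% fat beside it over 4 weeks or more. The methods describe C57BL/6J mice of both sexes, aged 6 to 8 weeks. There were 23 REG cells and 20 HFD cells, from 10 REG mice and 11 HFD mice. The labels split them into batch 1 (13 REG, 5 HFD) and batch 2 (10 REG, 15 HFD). No label ties a cell to a mouse, so each diet was treated as 1 sample and no test, p-value or standard error was derived from cells. Intervals below are exact 95% intervals. Those for summed counts are Poisson and take in counting error alone, and those for shares of cells are binomial and take in the sampling of cells alone. The former treat reads of amplified molecules as independent and the latter treat cells of shared mice as independent, so both are too narrow for a comparison of diets and none was made with them.

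Insulin and insulin-like growth factors bind receptor tyrosine kinases, which phosphorylate insulin receptor substrate (IRS) adaptors. The adaptors recruit PI3K through its regulatory subunit, its catalytic subunit makes the lipid that brings AKT to the membrane, and active AKT keeps FOXO transcription factors out of the nucleus. In neurons the pathway is known for its links to energy balance, survival and synaptic function, and in liver *Irs2* is a textbook target of FOXO factors that insulin turns down. These steps depend largely on phosphorylation, which transcript levels do not measure.

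The depth of the cells set the precision. The median total was 1426795 counts, between 176961 and 16919555, and 4 REG cells and 5 HFD cells held under 500000 counts. The cells were checked against markers of the labelled type. Summed levels of 5 markers of D1 medium spiny neurons ran from 837 to 6600 CPM in REG cells and from 104 to 5685 CPM in HFD cells. Summed levels of 3 GABAergic markers ran from 302 to 1422 CPM and from 102 to 2207 CPM, in that order. The 4 markers of D2 medium spiny neurons had summed medians of 13.2 CPM and 12.5 CPM, with sums of up to 582 CPM in a REG cell and 1380 CPM in an HFD cell. Summed levels of 3 glutamatergic markers reached at most 38.98 CPM and 66.9 CPM. Transcripts of other cells were also present. Summed levels of 7 microglial markers ran from 0.341 to 1326 CPM in REG cells (median, 50.8 CPM) and from 2.61 to 1467 CPM in HFD cells (median, 52.3 CPM), and 2 REG cells and 4 HFD cells had at least 4 of the 7 above 15 CPM. Summed levels of 6 astrocyte markers had medians of 157 CPM and 81.1 CPM, 5 oligodendrocyte markers had medians of 97.7 CPM and 149 CPM (highest, 1126 CPM and 1781 CPM), and 5 endothelial markers had medians of 2.38 CPM and 1.53 CPM. For cholinergic interneurons, *Slc18a3* was at 0 in every cell, while *Chat* was detected in 5 cells and *Slc5a7* in 12. Above 15 CPM were 1 cell for *Chat* and 2 cells for *Slc5a7*. The sum of these 3 markers had a median of 0 CPM in both diets. It reached 130.8 CPM in a REG cell and 38.4 CPM in an HFD cell. Ratios without the 6 cells with microglial markers and without the 9 shallow cells are given beside those of the 9 genes, and the part of these cells in any result was not tested.

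A cell contained transcripts of most of the 9 genes. With a count above 0 taken as detection, REG cells held a median of 8 of the 9 (range, 5 to 9) and HFD cells a median of 7 (range, 4 to 9). Thinned to 150000 counts per cell, the median was 6 in both diets. All 9 were detected in 2 REG cells and 4 HFD cells. The summed level of the 9 genes had a median of 414 CPM in REG cells, between 222 and 891 CPM, and of 375 CPM in HFD cells, between 50.5 and 994 CPM. The ranges of the diets overlapped over most of their length.

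**Figure D1:**
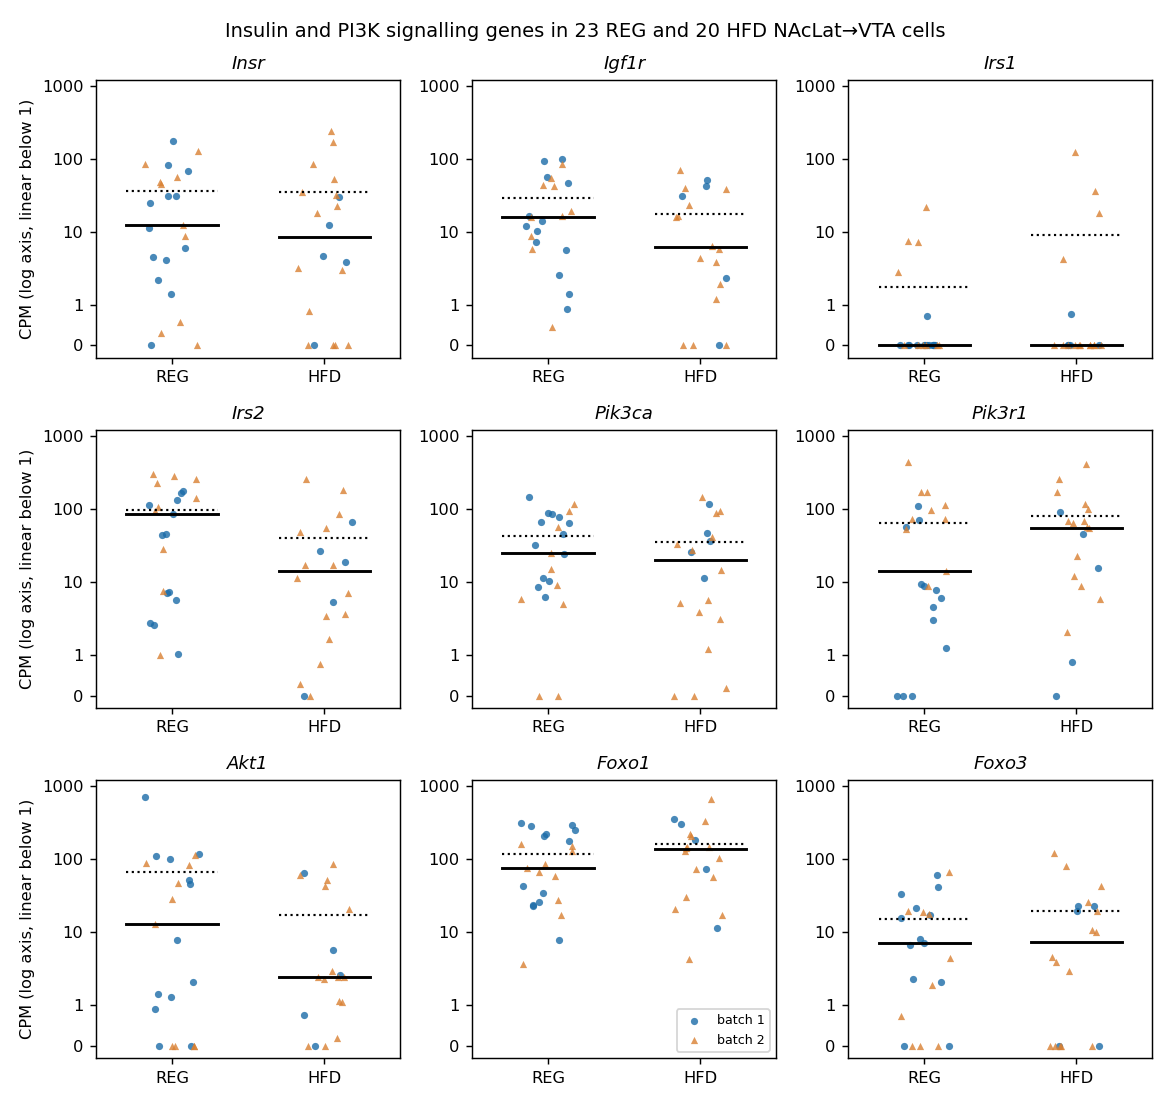
Level of each of the 9 genes in every cell, in CPM on a log axis that is linear below 1, for 23 REG and 20 HFD cells. Circles are batch 1 and triangles batch 2, solid lines are medians and dotted lines means. *Irs2* has a median of 84.6 CPM in REG cells against 14.1 CPM in HFD cells, *Foxo1* is above 0 in every cell, and *Irs1* is at 0 in most.

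Diet effects are given as the log2 ratio of mean CPM in HFD cells to that in REG cells, with each cell weighted equally and no pseudocount. Of the 8 filtered genes, 2 were lower in HFD cells by more than 1 on the log2 scale, *Irs2* and *Akt1*, and 0 were higher by more than 1. Of all 10802 filtered genes, 14.3% were lower and 9.04% higher past the same limit. The 8 genes split into 5 with a ratio under 0 and 3 above 0. Their median was −0.15, beside −0.13 over all filtered genes, where the 5th percentile was −1.65 and the 95th was 1.35. The sign was called stable where each batch alone, and the ratio without any single cell, gave it too. It was stable for 5 of the 8 genes, beside 38% of all filtered genes. These were 4 lower genes (*Igf1r*, *Irs2*, *Pik3ca* and *Akt1*), beside 24.2% of all, and 1 higher gene (*Foxo1*), beside 13.7%. The sign is relative to 0, and the median of all filtered genes was itself −0.09 in batch 1 and −0.16 in batch 2. *Pik3ca*, at −0.09 and −0.07, was thus close to or above the typical gene. Past 1 and stable were 2 lower genes and 0 higher genes, beside 11.6% and 6.04% of all filtered genes. The signs of *Insr*, *Pik3r1* and *Foxo3* were not stable. Scaling by TMM factors shifted the median ratio of all genes by 0.14 and DESeq2 size factors by 0.32, and under the latter 12.5% of genes were lower and 23.5% higher past the limit.

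**Figure D2:**
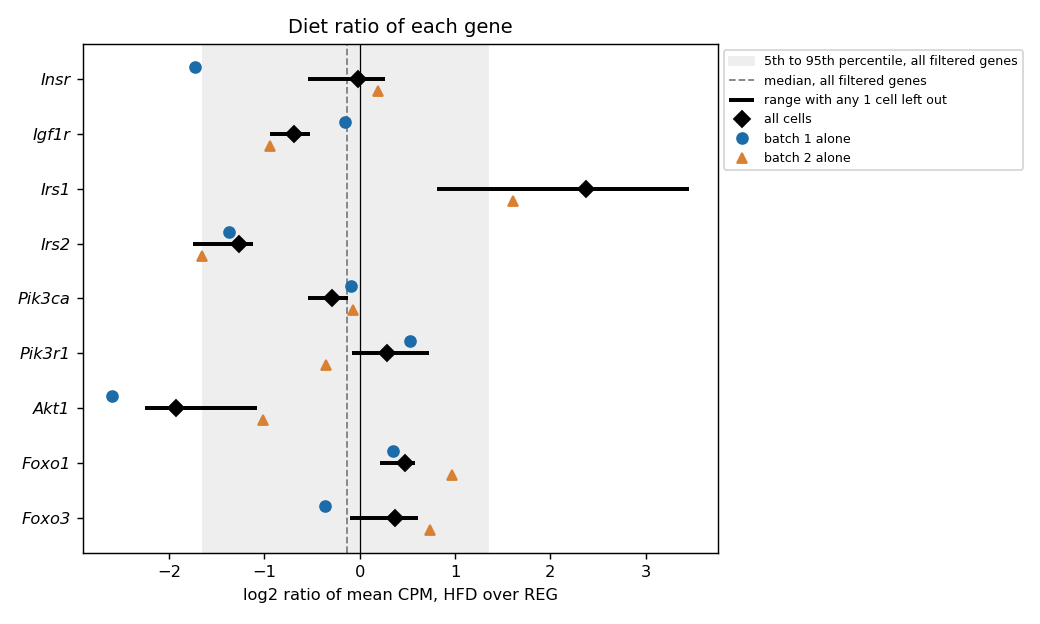
Log2 ratio of mean CPM, HFD over REG, for each gene. Diamonds are all cells, black bars the range with any 1 cell left out, circles batch 1 (not drawn for *Irs1*, with 1 count per diet there) and triangles batch 2, and the grey band runs from −1.65 to 1.35, the 5th to the 95th percentile of all filtered genes. *Irs2* lies at −1.27 with both batches below −1, and *Akt1* lies at −1.93 with a bar that reaches −1.08.

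The receptors begin the pathway. *Insr* encodes the insulin receptor and is at chr8:3122061-3279617 on the minus strand (GRCm38, as are all positions here). It was detected in 21 of 23 REG cells (91.3%; interval, 72.0% to 98.9%) and in 15 of 20 HFD cells (75%; interval, 50.9% to 91.3%). The lowest, median and highest levels were 0, 12.5 and 175 CPM in REG cells against 0, 8.52 and 240 CPM in HFD cells, so the diets overlapped throughout. The REG mean was 35.8 ± 46.0 CPM (SD, n = 23 cells) and the HFD mean 35.4 ± 62.4 CPM (SD, n = 20 cells), a log2 ratio of −0.02. That ratio had no direction, since it was −1.73 within batch 1 and 0.19 within batch 2, 0.43 on the authors' TPM, and −0.54 without the HFD cell at 240 CPM. It was 0.43 without the cells with microglial markers and 0.10 without the shallow cells.

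*Igf1r* encodes the receptor for insulin-like growth factor 1 and is at chr7:67952827-68233668 on the plus strand. It was detected in 23 of 23 REG and 16 of 20 HFD cells. Levels ran from 0.465 to 98.8 CPM in REG cells, with a median of 16.1, and from 0 to 69.8 CPM in HFD cells, with a median of 6.14. All 4 cells without a count were HFD cells, but above 10 CPM the diets overlapped. The log2 ratio was −0.69, between −0.94 and −0.52 with any 1 cell left out. It was −0.16 within batch 1 and −0.94 within batch 2, −0.75 without the cells with microglial markers and −0.95 without the shallow cells.

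The third gene of the family, *Insrr*, encodes an orphan receptor that binds neither hormone. Compared per length, on the TPM scale, the median level over 43 cells was 4.81 for *Insr*, 2.01 for *Igf1r* and 0.371 for *Insrr*. Within cells the order of the first pair was open, with *Insr* above *Igf1r* in 19 cells below it in 21, and 3 cells without a count of either. The mannose 6-phosphate and IGF2 receptor *Igf2r*, which clears its ligand rather than signalling through PI3K, had a log2 ratio of −0.79, or −0.51 without the shallow cells.

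The adaptors differed widely in level. *Irs2* carried 95.5% of the mean TPM of the IRS family and exceeded *Irs1* in 39 of 43 cells (90.7%; interval, 77.9% to 97.4%). *Irs4* had no count in any of the 43 cells. This order held in both diets, in 22 of 23 REG and 17 of 20 HFD cells.

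*Irs2*, at chr8:10984681-11008458 on the minus strand, was detected in 23 of 23 REG and 18 of 20 HFD cells. The lowest, median and highest levels were 0.996, 84.6 and 303 CPM in REG cells against 0, 14.1 and 255 CPM in HFD cells. Most HFD cells therefore lay in the lower part of the REG range, and a few HFD cells reached its upper part. The means were 96.8 ± 98.3 CPM (SD, n = 23 cells) and 40.2 ± 66.8 CPM (SD, n = 20 cells), from 4694 counts (interval, 4561 to 4830) and 1185 counts (interval, 1118 to 1254). The log2 ratio was −1.27, and its percentile among all filtered genes was 9.41. Over both diets the median was 26.6 CPM, and 15 of 23 REG cells (65.2%; interval, 42.7% to 83.6%) but 6 of 20 HFD cells (30%; interval, 11.9% to 54.3%) lay above it.

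Both batches gave a lower *Irs2* in HFD cells. In batch 1 the 13 REG cells had a median of 43.2 CPM, and the 5 HFD cells had 0, 5.36, 18.9, 26.6 and 65.7 CPM, a log2 ratio of −1.37. In batch 2, with a log2 ratio of −1.66, the 10 REG cells had a median of 122 CPM and the 15 HFD cells one of 11.2 CPM. The level itself also differed by batch and was higher in batch 2 by 1.26 in REG cells and 0.97 in HFD cells, on the log2 scale. With any 1 cell left out the diet ratio stayed between −1.75 and −1.12, the former without the HFD cell at 255 CPM. It was −1.38 on TPM, −1.23 without the 6 cells with microglial markers and −1.61 without the 9 shallow cells. All 14 alternatives ran in the same direction, from −1.66 to −1.03. A noncoding gene on the other strand, *9530052E02Rik*, overlaps *Irs2*, and since no strand setting is stated for the counting its reads could not be told apart.

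*Irs1*, at chr1:82233101-82291416 on the minus strand, was the rare adaptor. It was detected in 5 of 23 REG cells (21.7%; interval, 7.46% to 43.7%) and 5 of 20 HFD cells (25%; interval, 8.66% to 49.1%), and 8 of those 10 cells were in batch 2. The highest level was 22.1 CPM among REG cells and 124 CPM among HFD cells, and the median of both diets was 0. The sums were 88.8 counts and 151.6 counts. The ratio of means was 2.37, but 1 HFD cell with 42 counts held 67.9% of the HFD level and 1 REG cell with 44 counts held 54.7% of the REG level. Without the first the ratio was 0.81 and without the second 3.45, while the shares of cells with a count were those given above. The ratio was 3.67 without the cells with microglial markers and 0.87 without the shallow cells, which include that HFD cell. *Irs1* overlaps *Gm9747* on the other strand, which had counts in 9 cells.

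The sequences before the starts of both adaptor genes are shown because *Irs2* was lower in HFD cells of both batches and because the pair shared letters there. RefSeq (GRCm38.p6) gives the 250 bases before the start of *Irs1* at chr1:82291440-82291689 and of *Irs2* at chr8:11008930-11009179, both read 5′ to 3′ on the minus strand. Capitals mark TGTTTT, the core of the insulin response element that FOXO factors are known to bind, and CACGTG, a palindromic E-box. Both motifs, and the limit of 10 bases between their starts used below, were chosen after values and sequences had been seen. The shares of windows below are therefore a description.
Irs1: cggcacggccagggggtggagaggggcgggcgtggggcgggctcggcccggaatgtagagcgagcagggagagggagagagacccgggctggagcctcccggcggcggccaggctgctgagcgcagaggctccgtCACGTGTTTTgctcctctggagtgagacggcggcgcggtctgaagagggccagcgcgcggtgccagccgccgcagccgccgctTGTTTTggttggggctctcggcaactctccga
Irs2: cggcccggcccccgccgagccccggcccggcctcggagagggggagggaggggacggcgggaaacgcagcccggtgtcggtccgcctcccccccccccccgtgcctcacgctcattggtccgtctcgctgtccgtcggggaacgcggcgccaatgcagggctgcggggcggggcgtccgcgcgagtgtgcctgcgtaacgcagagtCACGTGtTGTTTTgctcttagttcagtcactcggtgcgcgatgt
In *Irs2* the E-box begins 44 bases before the RefSeq start and the core 37 bases before it, with 1 base between them. The RefSeq starts of both genes lie upstream of the starts in the positions given above, 11008458 for *Irs2* and 82291416 for *Irs1*. In *Irs1* the E-box begins 115 bases and the core 111 bases before the start, so that the motifs overlap, and a second core begins 32 bases before the start. Among 32851 promoter windows of this length, searched on both strands, 19.8% held TGTTTT, 6.02% held CACGTG, 0.922% held both, and 16 windows (0.0487%) held them starting within 10 bases of each other. For the other genes, 8 windows of 6 genes matched by symbol, and 1 of these windows, of *Akt1*, held the core 125 bases before the start. No window was matched for *Insr*. A match is a description of letters and not a binding site.

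The kinase that the adaptors recruit pairs a catalytic with a regulatory subunit. *Pik3ca*, at chr3:32397671-32468486 on the plus strand, encodes the catalytic subunit p110α and was detected in 21 of 23 REG and 18 of 20 HFD cells. Its lowest, median and highest levels were 0, 24.9 and 144 CPM for REG and 0, 19.98 and 144 CPM for HFD. The diets shared nearly the same range. The log2 ratio was −0.29, with −0.09 within batch 1, −0.07 within batch 2 and −0.75 on TPM, and −1.32 where counts were summed over cells so that deep cells weighed more. It was −0.16 without the cells with microglial markers and −0.33 without the shallow cells. *Pik3ca* was the highest of 4 class I catalytic genes in 26 of 43 cells on the TPM scale, while *Pik3cd*, *Pik3cb* and *Pik3cg* were highest in 8, 6 and 1. Its median of 5.40 TPM contrasted with 0 TPM for each of those 3 genes. By mean TPM they were closer, with 39.5% of the family for *Pik3ca*, 30.7% for *Pik3cd* and 27.7% for *Pik3cb*. In REG cells *Pik3ca* held 42.8% and *Pik3cd* 16.1%, but in HFD cells they held 34.4% and 53.4%. In CPM, 1 HFD cell held 70.6% of the HFD level of *Pik3cd*.

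*Pik3r1*, at chr13:101680563-101768217 on the minus strand, encodes the regulatory subunit p85α that docks on phosphorylated adaptors. It was detected in 20 of 23 REG and 19 of 20 HFD cells, with levels of 0, 14.2 and 440 CPM (lowest, median, highest) in REG cells and 0, 55.3 and 413 CPM in HFD cells. The medians differed, and 15 of the 20 HFD cells but 10 of the 23 REG cells were in batch 2. The diet ratio was 0.28 with all cells, 0.52 for batch 1 and −0.36 for batch 2. Without the cells with microglial markers it was 0.21 and without the shallow cells 0.31. Batch 2 exceeded batch 1 by 2.52 in REG cells and by 1.64 in HFD cells, on the log2 scale, past 1 in both diets, as were 6.68% of all filtered genes. It was the only one of the 8 filtered genes to do so, and none was lower past 1 in both diets, beside 6.3% of all. The batch ratio had the same sign in both diets for 5 of the 8, beside 55.6% of all. *Pik3r1* exceeded *Pik3ca* on the TPM scale in 3 of 13 REG and 1 of 5 HFD cells of batch 1, but in 9 of 10 REG and 12 of 15 HFD cells of batch 2. Batch and diet are therefore given apart for this gene. Its paralogue *Pik3r2* (p85β) was close to it, with a median of 10.7 TPM beside 15.02 TPM, and either gene was the higher in many cells, *Pik3r1* in 23 and *Pik3r2* in 18.

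**Figure D3:**
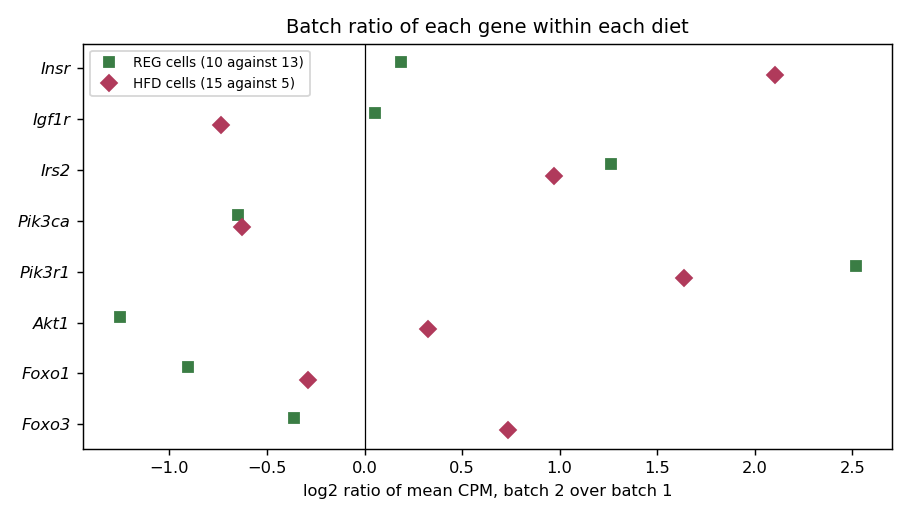
Log2 ratio of mean CPM in batch 2 over batch 1 for 8 genes, within REG cells (squares; 10 against 13 cells) and within HFD cells (diamonds; 15 against 5 cells). *Pik3r1*, at 2.52 and 1.64, and *Irs2*, at 1.26 and 0.97, were higher in batch 2 in both diets. *Irs1* is left out, since it had 1 count in each diet of batch 1.

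*Akt1*, at chr12:112653821-112674884 on the minus strand, encodes the kinase that PI3K activates. It was detected in 17 of 23 REG cells (73.9%; interval, 51.6% to 89.8%) and 17 of 20 HFD cells (85%; interval, 62.1% to 96.8%). The lowest, median and highest levels were 0, 12.9 and 712 CPM in REG cells against 0, 2.43 and 84.7 CPM in HFD cells. All 5 cells above 100 CPM were REG cells, and below 100 CPM the diets overlapped. The means of 66.0 ± 147 CPM (SD, n = 23 cells) and 17.3 ± 26.9 CPM (SD, n = 20 cells) gave a log2 ratio of −1.93, at percentile 3.12 of all filtered genes. A single REG cell of batch 1, the shallowest of all at 176961 counts, held 126 *Akt1* counts and 46.9% of the REG level. Without it the ratio was −1.08.

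The direction of *Akt1* held in both batches, at −2.60 in batch 1 and −1.02 in batch 2, and in all 14 alternatives, but its size did not. Without the 9 cells under 500000 counts it was −0.70, and without the 6 cells with microglial markers it was −2.85. Detection depended on depth. A count above 0 was found in the shares given above, but after thinning to 150000 counts *Akt1* was found in 14 of 23 REG and 9 of 20 HFD cells, and above 15 CPM in 11 and 6. *Akt2*, known for its part in insulin-driven glucose uptake and a paralogue of *Akt1*, had a log2 ratio of −0.49, with −1.01 without the cells with microglial markers and −0.07 without the shallow cells. On the TPM scale the medians over 43 cells were 5.91 for *Akt1* and 12.6 for *Akt2*, and *Akt2* was the higher of the pair in 22 cells and *Akt1* in 20. Neither stood above the other across these cells as *Irs2* did above *Irs1*.

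The FOXO factors are the transcriptional end of the pathway. *Foxo1*, at chr3:52268336-52353221 on the plus strand, was the only one of the 9 genes detected in all 43 cells, and it exceeded 15 CPM in 39. The lowest, median and highest levels were 3.61, 74.8 and 305 CPM in REG cells against 4.21, 135 and 653 CPM in HFD cells. The ranges overlapped, and the highest HFD cell, a shallow one, stood apart from the next at 357 CPM. The means were 115 ± 101 CPM (SD, n = 23 cells) and 160 ± 157 CPM (SD, n = 20 cells), from 5852 counts (interval, 5703 to 6004) and 6467 counts (interval, 6311 to 6627). The log2 ratio was 0.47, at percentile 77.6 of all filtered genes, with 0.35 in batch 1 and 0.97 in batch 2. It was 0.21 without the highest HFD cell, 0.24 without the shallow cells and 0.53 without the cells with microglial markers, and it ran in the same direction in all 14 alternatives. The antisense gene *Gm20402* overlaps *Foxo1*, with the same limit on strand as above.

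*Foxo3*, at chr10:42181841-42276755 on the minus strand, encodes a factor related to *Foxo1* and was lower. It was detected in 18 of 23 REG and 13 of 20 HFD cells, with medians of 7.12 CPM and 7.29 CPM and highest levels of 66.4 and 121 CPM. The log2 ratio of 0.37 turned to −0.36 within batch 1 and to −0.10 without 1 HFD cell, so no direction can be given. It was 0.34 without the cells with microglial markers and 0.63 without the shallow cells. *Foxo1* exceeded *Foxo3* on the TPM scale in 37 of 43 cells (86.0%; interval, 72.1% to 94.7%), and among 4 FOXO genes it was the highest in 33 cells, with a median of 16.3 TPM beside 1.52 TPM for *Foxo3*. The median was 0 for both *Foxo4* and *Foxo6*.

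**Figure D4:**
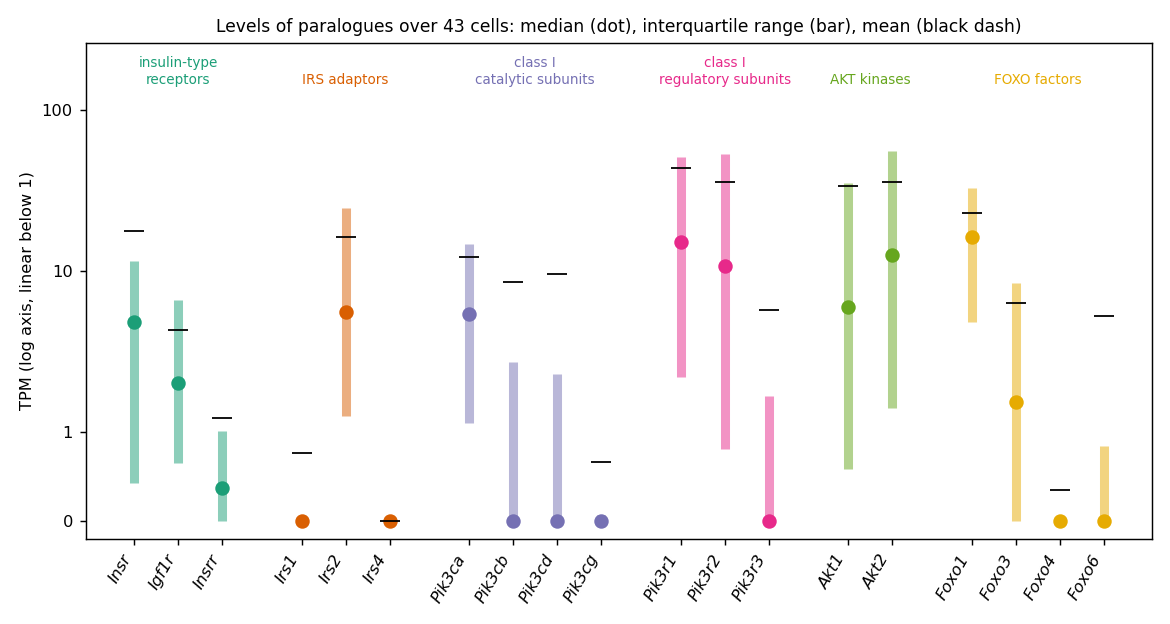
Level per length (TPM, log axis that is linear below 1) of the 9 genes and paralogues over 43 cells, with dots for medians, bars for interquartile ranges and black dashes for means. *Irs2* and *Foxo1* stand far above their paralogues in the median, whereas *Pik3r1* and *Pik3r2*, at 15.02 and 10.7 TPM, and *Akt1* and *Akt2*, at 5.91 and 12.6 TPM, lie closer together.

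*Irs2* and *Foxo1*, the leading adaptor and the leading FOXO factor, were set against each other within the same cell, a comparison chosen after their values had been seen. On the TPM scale *Irs2* exceeded *Foxo1* in 9 of 23 REG cells (39.1%; interval, 19.7% to 61.5%) and in 2 of 20 HFD cells (10%; interval, 1.23% to 31.7%). Within batch 1 the cells were 3 of 13 and 0 of 5, and within batch 2 they were 6 of 10 and 2 of 15. With *Irs2* lower and *Foxo1* higher in HFD cells, a smaller HFD share restates those diet ratios and is no separate result. Across the 36 pairs of the 9 genes, Spearman's rho over the 43 cells ran from −0.31 to 0.45 with a median of 0.08, as a description, since the cells share mice, batches and depth. For *Irs2* and *Foxo1* in CPM, rho was 0.11.

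**Figure D5:**
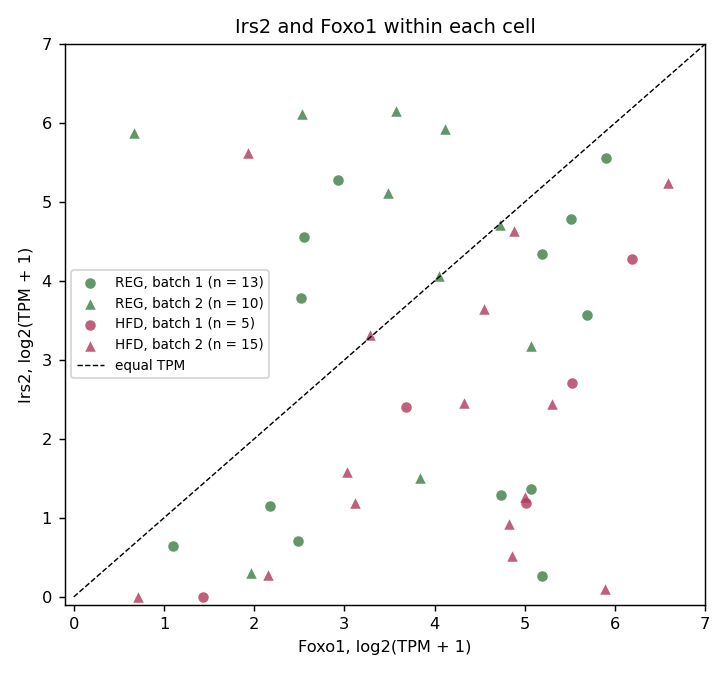
*Irs2* against *Foxo1* in each of 43 cells, both as log2(TPM + 1), with REG in green, HFD in red, circles for batch 1 and triangles for batch 2. Above the dashed line of equal TPM lie 9 of 23 REG and 2 of 20 HFD cells, which restates the diet ratios of both genes.

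The rest of the pathway was described by 7 lists of 100 genes. All 100 were in the tables and 71 passed the filter, with 7 lower and 9 higher past 1 and a median ratio of 0.10. That is 9.86% lower and 12.7% higher, beside 14.3% and 9.04% of all filtered genes. None of the lists had more than 4 genes past the limit in 1 direction, so their counts are too small to set against those shares. For ligands and binding proteins 3 of 11 genes passed the filter, with 0 lower and 1 higher, and the insulin genes *Ins1* and *Ins2* had no count in any cell. For receptors and adaptors 8 of 13 passed, with 0 past the limit. For the other PI3K subunits 9 of 11 passed, with 2 lower and 1 higher, and for the other AKT genes and the kinases that act with them 9 of 9, with 1 lower and 1 higher.

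Among the brakes of the pathway 12 of 18 passed, with 0 lower and 1 higher. Targets of AKT and the mTORC1 branch had 14 of 15 genes in the filter, with 1 lower and 1 higher. The FOXO family and FOXO target genes had 16 of 23, with 3 lower (18.75%) and 4 higher (25%), again beside 14.3% and 9.04% of all filtered genes.

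By ratio and a stable sign, the genes outside the 9 with the lowest values were *Pik3cb*, *Sgk1* and *Fbxo32*. *Pik3cb*, a second catalytic subunit (p110β), was detected in 12 of 23 REG and 8 of 20 HFD cells, with a log2 ratio of −2.23. Its medians were 0.34 CPM (REG) and 0 CPM (HFD), and 5 REG cells and 2 HFD cells exceeded 15 CPM. REG cells alone thus met the filter of at least 5 cells, which favours a low ratio. The highest REG cell held 31.1% of the REG level. Dropping any 1 cell gave −2.84 to −1.76, whereas the difference of mean log2(CPM + 1) was −0.68. *Sgk1*, a kinase related to AKT, had medians of 43.8 CPM (REG) and 3.69 CPM (HFD) and a log2 ratio of −2.00 with −0.61 in batch 1 and −2.87 in batch 2. *Fbxo32*, a ubiquitin ligase gene that FOXO factors switch on in muscle, had a ratio of −1.86, with −0.57 in batch 1 and −2.70 in batch 2, and −1.26 without the shallow cells. It exceeded 15 CPM in 8 REG and 3 HFD cells, so it too met that filter through REG cells alone.

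The highest values belonged to *Foxo6*, *Cat* and *Rptor*. *Foxo6*, a FOXO factor typical of brain, had counts in 6 of 23 REG and 9 of 20 HFD cells, with means of 1.08 and 16.6 CPM and a ratio of 3.94. Above 15 CPM were 1 REG cell and 6 HFD cells. HFD cells alone thus met the filter of at least 5 cells, which favours a high ratio. A single REG cell held 63.8% of the REG level, and with any 1 cell left out the ratio ran from 3.51 to 5.34, the latter without that cell. The difference of mean log2(CPM + 1) was 1.503, and in batch 1 only 1 HFD cell had a count. *Cat*, which encodes catalase, had a ratio of 1.99, with 1 cell holding 47.4% of the HFD level and 1 cell 53.9% of the REG level. Leaving out single cells gave values down to 1.14 and up to 3.04. *Rptor*, which encodes the mTORC1 subunit raptor, had a ratio of 1.30, or 0.55 without the cells with microglial markers. The batches differed in their medians, at 0.70 CPM (REG) and 30.4 CPM (HFD) in batch 1 but 4.55 CPM (REG) and 2.16 CPM (HFD) in batch 2, while the ratios of means were 1.93 and 0.96.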

How the data were processed

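Single NAcLat→VTA cells were collected through the patch pipette, amplified (SMART-Seq) and sequenced. Per the labels and methods, the authors used kallisto to pseudo-align reads to mouse transcripts of GRCm38, added transcripts up by gene and removed cells with few reads or few genes. The deposited tables hold estimated counts without normalization and the authors' TPM, scaled within each cell. Whether counting used strand is not given in the sources used here.

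CPM was the estimated count over the cell total times 1000000, and 65.5% of counts above 0 lay within 0.01 of a whole number. Ratios divided mean CPM of HFD by REG cells. Cells were thinned without replacement, and the ratio was tested on simulated data. The 9 genes, the pathway lists and the markers were chosen with earlier results of these data known. Named besides the 9 were paralogues and the 3 filtered genes per direction with the largest ratio and a stable sign, as defined in the report. The study fitted edgeR over cells. Because mice are not named, edgeR and DESeq2 served here only for scaling and coefficients read as values. Some planned genes are not reported here. Positions came from GENCODE M21 and promoters from RefSeq GRCm38.p6. R 4.3.3 ran DESeq2 1.42.0 and edgeR 4.0.16, and Python 3.11.15 ran scipy 1.17.1, pandas 2.3.3, numpy 2.4.6 and matplotlib 3.10.9.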

Additional observations from a re-analysis of the deposited data

How the results depend on the processing

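No paired analysis was possible because the cells carry no replicate numbers that tie the diets to each other and no label names a mouse. The median log2 ratio of the 8 filtered genes was −0.15. The counting bounds of the 8 genes, taken one by one, had medians of −0.25 (lower) and −0.06 (upper). These take in counting error alone and are not an interval of the median ratio. The median ratio moved to −0.44 on TPM, −0.0526 with TMM factors and −0.0065 with DESeq2 size factors. Summed counts and the difference of mean log2(CPM + 1) each gave −0.61. An edgeR coefficient without batch gave −0.0527, batch 1 alone −0.26 and the average of the batches −0.32. Dropping the cells with microglial markers gave 0.0237, and dropping any 1 cell gave −0.38 to −0.0169. The 2 genes lower past 1 became 4 with summed counts, where *Igf1r* (−1.26) and *Pik3ca* (−1.32) joined, and 1 without cells under 500000 counts, where *Akt1* (−0.70) dropped out. Leaving out any 1 cell kept 2 lower and 0 higher. The 0 genes higher past 1 became 1 with DESeq2 size factors, *Pik3r1* (1.28). The median number of the 9 genes per REG cell, 8, was 6 with a count of at least 5, 4 above 15 CPM and 6 after thinning, and the median per HFD cell, 7, was 4.5 above 15 CPM. Of all genes, 23.3% lay past 1 in either direction, 40.2% of 18731 genes without a filter. The sign of *Insr* held in 6 of 14 alternatives, and those of *Pik3r1* and *Foxo3* in 12 of 14. For *Irs1*, 2 of the alternatives, the edgeR coefficients, gave no value because it does not pass the filter. The alternatives without cells with microglial markers and without shallow cells were chosen after seeing the data. The cause of these changes was not tested. *Irs1* and *Foxo6* rest on few cells.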

Other observations

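The genes whose CPM ran most like each of the 8 commoner genes over the 43 cells, taken as the 2 highest values of Spearman's rho among 10802 filtered genes, are given as a description, since a highest value among so many is high by selection and the cells share mice, batches and depth. For *Insr* they were the olfactory receptor gene *Olfr2* (0.70), detected in 30 cells, and *Wbp4* (0.69). For *Igf1r* they were *Ube2l3* (0.56) and *Nfatc2* (0.56), the latter a calcium-regulated transcription factor. *Irs2* was followed most closely by *Pdk3* (0.61), a kinase of pyruvate dehydrogenase, and *Xpnpep1* (0.59). *Pik3ca* was followed by *Cul9* and *Knop1* (0.65 each), and *Pik3r1* by *Arl8a* (0.61), a GTPase of lysosome transport, and *Extl2* (0.60). The pair was *Tcea1* (0.64) and *Selenon* (0.58) for *Akt1*, *Rapgefl1* (0.67) and *Ints13* (0.64) for *Foxo1*, and *Agpat4* (0.57) and *Ubn2* (0.57) for *Foxo3*. No gene appeared for 2 of the 8.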
